A study of Oryctolagus cuniculus with 4 samples.

Results

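The Hippo pathway was examined through 10 genes: the coactivators YAP1 and WWTR1, the transcription factors TEAD1, TEAD2, TEAD3 and TEAD4, the kinases LATS1 and LATS2, and the angiomotin-like genes AMOTL1 and AMOTL2. They were chosen by gene symbol, and 8 of the 10 were found among the 13913 genes of the table. TEAD2 and LATS1 were not analysed here. Single-cell RNA sequencing (scRNA-seq) libraries had been made from rabbit ear hypertrophic scar (HS), and the table gave 1 value per gene and library, so the values describe the mixture of captured cells and not single cell types.

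The 4 libraries formed 2 groups of 2. All came from scars that followed surgical wounding of the ventral ear of female rabbits, with a genotype labelled WT, bought at 10 to 12 weeks of age and harvested on day 43. The HS group had no treatment. The other group, drug-loaded MNs, received microneedles (MNs) loaded with drug 1 time a week for 3 weeks. Their separable tips are left behind in the scar and release 5-fluorouracil acetic acid from a prodrug linked into the tips. No library had drug-free MNs, so the needles and the drug cannot be told apart. Only ventral epidermis and dermis were dissociated. Each library came from 1 scar tissue. The study calls them biologically independent samples but does not say whether each came from its own rabbit, and the p-values measure only the spread between these libraries.

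The Hippo pathway is a kinase cascade that links cell density, tension and growth signals to gene transcription. The MST kinases (STK3 and STK4) with their scaffold SAV1 activate the LATS kinases, which phosphorylate YAP1 and WWTR1 (also called TAZ) and keep them in the cytoplasm. When this brake is released, YAP1 and WWTR1 enter the nucleus and act through the TEAD proteins, which bind DNA. In skin, this output is known for keratinocyte proliferation and for the response of fibroblasts to stiff matrix. The activity of the pathway is set largely by phosphorylation and location of the proteins, which RNA levels do not show.

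Values are relative expression, and 1 unit is 1 part in 1000000 of what a library sums to. In limma, 4 of the 9348 genes tested (0.0428%) passed an adjusted p of 0.05 between drug-loaded MNs and HS, and 809 (8.65%) had an unadjusted p under 0.05. Of those 809, 679 were higher and 130 lower in drug-loaded MNs, against 494 and 277 with median ratio scaling and 428 and 297 with quantile normalization. For 37.8% of the genes tested the groups did not overlap, higher in drug-loaded MNs in 26.6% and lower in 11.2%. The median log2 fold change of all genes tested was 0.12, and it was -0.01 under median ratio scaling, so changes are to be read against that shift. HS replicate 1 was the lowest of the 4 libraries in 44.5% of the genes tested.

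Against this background, none of the 8 Hippo genes passed in limma. The smallest adjusted p among them was 0.666, and 0 of the 8 had an unadjusted p under 0.05. For 2 of the 8 genes the groups did not overlap, WWTR1 (higher in drug-loaded MNs) and TEAD3 (lower). All 8 passed the filter on low values. Their median log2 fold change was 0.18, with 7 of the 8 above 0 where 64.6% of all genes tested were, but 4 of the 8 were above 0 with median ratio scaling (median 0.04) and with quantile normalization (median 0.08). The median was -0.08 without HS replicate 1, and that library was the lowest of the 4 in 6 of the 8 genes.

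**Figure D1:**
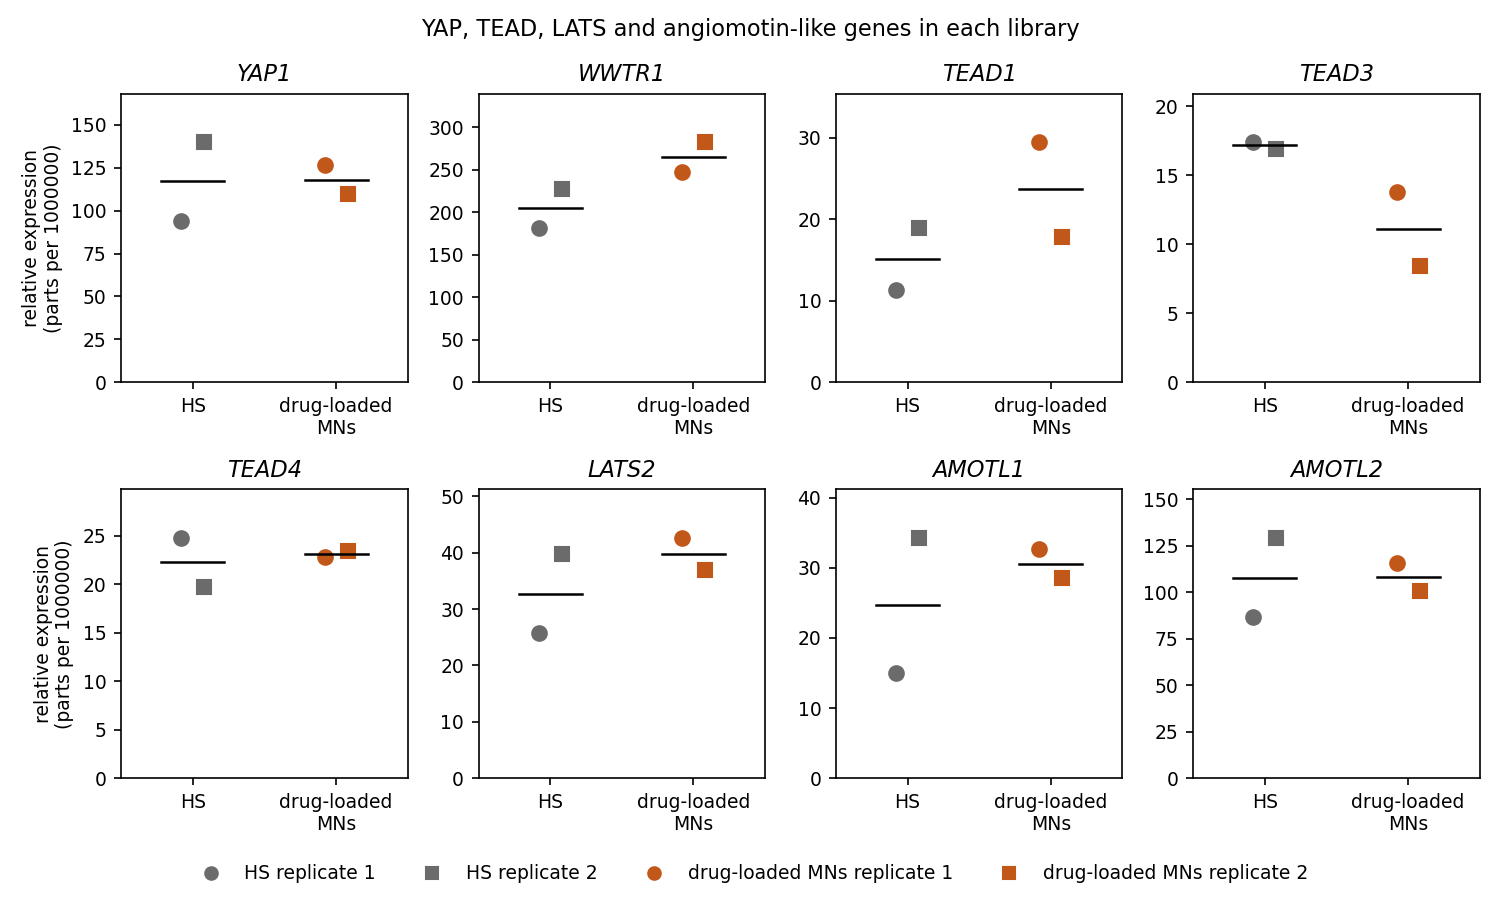
Relative expression (vertical axis, parts per 1000000 of the library total, from 0) of the 8 genes in HS and drug-loaded MNs. Each point is 1 library, circles are replicate 1, squares are replicate 2, and black lines are group means. The groups are separate for WWTR1 and TEAD3 and overlap for the other 6 genes, and HS replicate 1 is the lowest library in 6 panels.

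The coactivators YAP1 and WWTR1 are paralogs with similar binding partners. YAP1 (ENSOCUG00000025834) stood at 93.7 and 140 units in the HS libraries and at 127 and 110 units in the drug-loaded MNs libraries. Both treated libraries lay between the untreated ones. The group means were 117 ± 32.9 units without and 118 ± 12.1 units with treatment (± SD over n = 2 libraries). The log2 fold change was 0.04 (95% limma interval -0.57 to 0.65, adjusted p 0.98). Its sign was negative with quantile normalization (-0.02) and with median ratio scaling (-0.10).

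WWTR1 (ENSOCUG00000013750) stood at 182 and 228 units in HS and at 247 and 283 units in drug-loaded MNs. Both treated libraries were above both untreated ones. The distance between the groups, from 228 to 247 units, was smaller than the distance between the libraries of either group. The means were 205 ± 32.5 and 265 ± 25.5 units (± SD over n = 2 libraries), with a log2 fold change of 0.38 (95% limma interval -0.15 to 0.91, adjusted p 0.74). Of all genes tested, 23.7% had a higher fold change. With 1 library left out, the log2 fold change of WWTR1 ran from 0.21 to 0.54, all above 0.

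The TEAD genes encode the DNA-binding partners of YAP1 and WWTR1, and the 3 analysed here had different values. TEAD1 (ENSOCUG00000007955) stood at 11.4 and 19.0 units in HS and at 29.6 and 17.9 units in drug-loaded MNs. Drug-loaded MNs replicate 1 was the high library, and replicate 2 of that group fell within the HS range. The means were 15.2 ± 5.38 and 23.7 ± 8.27 units (± SD over n = 2 libraries), with a log2 fold change of 0.61 (95% limma interval -0.21 to 1.43, adjusted p 0.73). It was 0.26 when drug-loaded MNs replicate 1 was left out and 0.96 when replicate 2 of that group was.

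TEAD3 (ENSOCUG00000004072) went the other way. Its HS libraries stood at 17.4 and 16.9 units, close to each other, and its drug-loaded MNs libraries at 13.8 and 8.42 units, both below HS. The means were 17.2 ± 0.368 and 11.1 ± 3.79 units (± SD over n = 2 libraries). The log2 fold change was -0.62 (95% limma interval -1.33 to 0.09, adjusted p 0.67), lower than in 97.8% of all genes tested. It was negative under all 13 alternatives, and lay at -0.30 when drug-loaded MNs replicate 2 was left out and at -0.95 when replicate 1 of that group was. In the fit on library totals, it was the only gene of the 8 with a log2 fold change below 0.

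TEAD4 (ENSOCUG00000015389) stood at 24.8 and 19.7 units in HS and at 22.8 and 23.4 units in drug-loaded MNs. Both treated libraries lay within the HS range. The log2 fold change was 0.06 (95% limma interval -0.53 to 0.65, adjusted p 0.97), and with median ratio scaling it was -0.08, with quantile normalization -0.07.

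LATS2, the LATS kinase with values here, both restrains YAP1 and WWTR1 and is a known target of them. LATS2 (ENSOCUG00000009442) stood at 25.8 and 39.7 units in HS and at 42.7 and 37.0 units in drug-loaded MNs. Its low library was HS replicate 1, while HS replicate 2 lay between the treated libraries. The means were 32.7 ± 9.84 and 39.8 ± 4.03 units (± SD over n = 2 libraries), with a log2 fold change of 0.30 (95% limma interval -0.35 to 0.96, adjusted p 0.84). Without HS replicate 1 it was 0.001.

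The angiomotin-like proteins bind YAP1 and hold it at junctions and in the cytoplasm, and AMOTL2 is itself a target gene of the pathway. AMOTL1 (ENSOCUG00000001078) stood at 15.1 and 34.3 units in HS, 2.28 times apart, and at 32.7 and 28.5 units in drug-loaded MNs. Both treated libraries lay between the untreated ones. Its log2 fold change was 0.40 (95% limma interval -0.48 to 1.29, adjusted p 0.84), and it was -0.16 without HS replicate 1. AMOTL2 (ENSOCUG00000028052) stood at 86.4 and 129 units in HS and at 116 and 101 units in drug-loaded MNs, again within the HS range. Its means of 108 ± 30.4 and 108 ± 10.7 units (± SD over n = 2 libraries) gave a log2 fold change of 0.03 (95% limma interval -0.58 to 0.64, adjusted p 0.98), which with median ratio scaling was -0.11 and with quantile normalization -0.03.

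**Figure D2:**
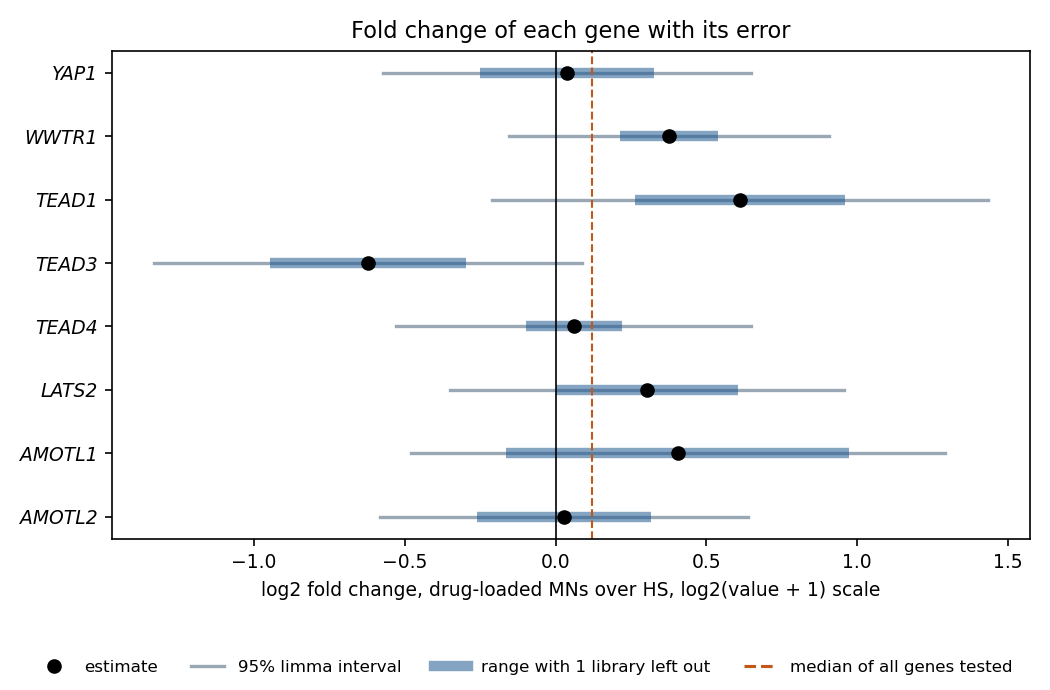
Log2 fold change of drug-loaded MNs over HS (horizontal axis, log2(value + 1) scale) for the 8 genes. Points are estimates, thin lines are 95% limma intervals, thick bars are the range with 1 library left out, and the dashed line is the median of all genes tested at 0.12. Every thin line crosses 0, and the thick bars of YAP1, TEAD4, AMOTL1 and AMOTL2 cross it as well.

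YAP1 and AMOTL2 had nearly the same profile over the 4 libraries. By root mean square difference of centred log2 values, the 3 genes with a symbol nearest to YAP1 were MID2 (0.00381), AMOTL2 (0.00545) and STRN (0.0114). The nearest to WWTR1 were YIPF5 (0.0259), TPP1 (0.0298) and SYNJ1 (0.0319). These distances describe 4 libraries only and were not tested.

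Ratios of genes within a library do not depend on any scaling by 1 factor per library, though quantile normalization can change them. 10 such ratios were taken, with pairs chosen after the values were seen and no test made. How often the groups separate for gene pairs at large was not computed, so a separation here is not read as particular to the pathway. Only their change between libraries is read, since it is unknown whether levels of different genes can be compared. The log2 ratio of AMOTL2 to YAP1 was -0.117 and -0.116 in the HS libraries, against -0.130 and -0.122 in drug-loaded MNs. All 4 libraries thus gave almost the same ratio, although YAP1 itself differed 1.496 times between the HS libraries. The log2 ratio of LATS2 to YAP1 was -1.86 and -1.82 in the HS libraries and -1.57 in both drug-loaded MNs libraries, a difference of 0.27 with a pooled SD of 0.02. Each group was narrow here, with LATS2 higher relative to YAP1 in both treated libraries.

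Among the coactivators, the log2 ratio of WWTR1 to YAP1 was 0.96 and 0.70 without treatment, against 0.96 and 1.37 with it. HS replicate 1 and drug-loaded MNs replicate 1 lay almost together (0.955 and 0.963), so the groups barely separated. Among the TEAD genes, the log2 ratio of TEAD1 to TEAD3 was -0.62 and 0.17 in the HS libraries, against 1.10 and 1.08 in drug-loaded MNs. The difference between the means was 1.32, with a pooled SD of 0.39, and both treated libraries were above both untreated ones. The ratio of TEAD1 to TEAD4 overlapped between the groups, and so did that of the target genes CCN1 and CCN2. The log2 ratio of TEAD3 to TEAD4 was -0.51 and -0.22 in the HS libraries, against -0.73 and -1.48 in drug-loaded MNs. The log2 ratio of AMOTL1 to AMOTL2 was -2.52 and -1.91 in the HS libraries, against -1.83 and -1.82 in drug-loaded MNs, so HS replicate 1 stood apart from the other 3 libraries.

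**Figure D3:**
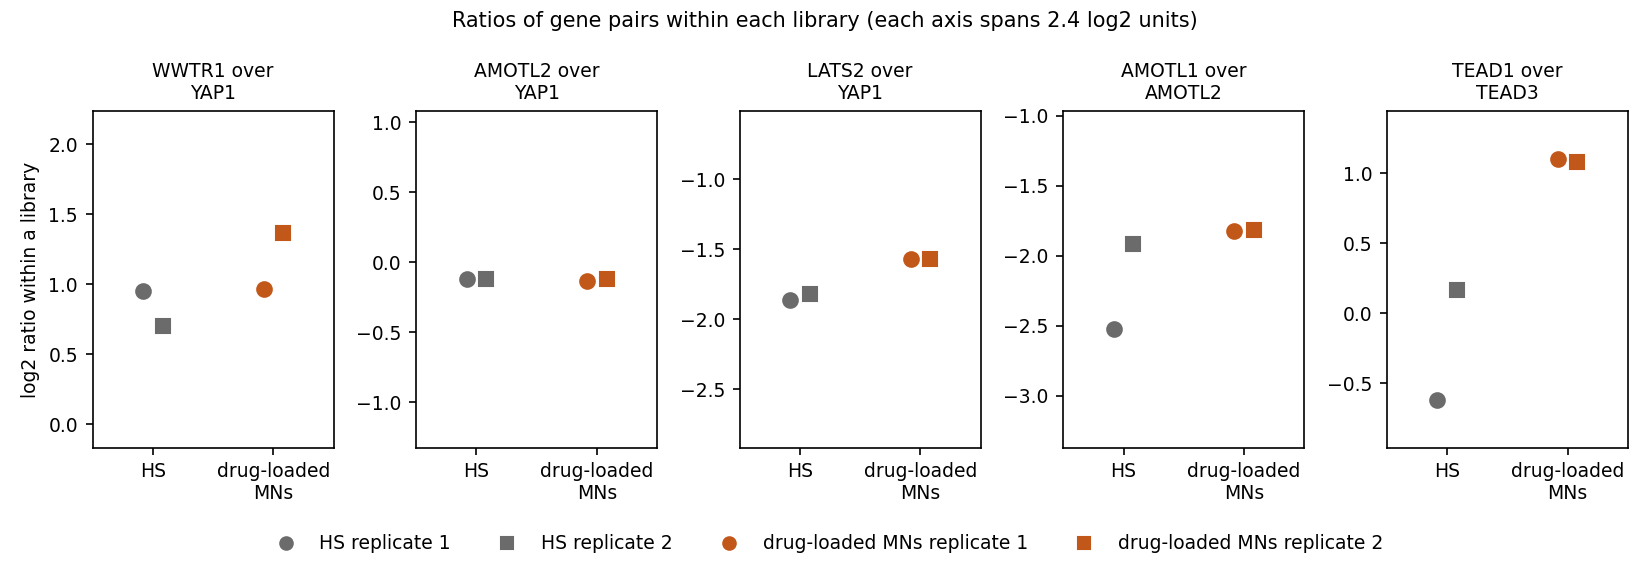
Log2 ratio of 2 genes within each library (vertical axis, every panel spanning the same length) in HS and drug-loaded MNs. Each point is 1 library, circles for replicate 1 and squares for replicate 2. AMOTL2 over YAP1 stays between -0.130 and -0.116, while TEAD1 over TEAD3 goes from -0.62 and 0.17 in HS to 1.10 and 1.08 in drug-loaded MNs.

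The upstream and partner genes of the pathway were described from a list of 31, of which 24 were in the table and 23 passed the filter on low values. None passed in limma (smallest adjusted p 0.316). At an unadjusted p under 0.05 there were 3 higher and 0 lower, where 7.26% and 1.39% of all genes tested were. Of the 23, 18 were higher and 5 lower, with a median log2 fold change of 0.33, which was 0.19 both with median ratio scaling and with quantile normalization. Groups were free of overlap for 11 higher genes and 1 lower gene, where 26.6% and 11.2% of all genes tested were. The median was 0.08 without HS replicate 1 and 0.57 without HS replicate 2. HS replicate 1 was the lowest library in 18 of the 23, and in 44.5% of all genes tested.

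The core kinase STK3 (MST2) stood at 14.1 and 21.0 units in HS and at 28.1 and 23.9 units in drug-loaded MNs. Its log2 fold change was 0.57 (SE 0.28, adjusted p 0.68 in limma). SAV1, the scaffold that joins MST to LATS kinases, stood at 19.95 and 20.8 units in HS and at 29.2 and 22.1 units in drug-loaded MNs, with a log2 fold change of 0.30 (adjusted p 0.83 in limma). For both genes the treated libraries were above the untreated ones, and for SAV1 by little in replicate 2. STK4 and NF2 were not analysed here. The LATS cofactors MOB1A and MOB1B overlapped between the groups, with log2 fold changes of 0.33 and 0.24.

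The highest fold changes of this list were in VGLL3 and FAT4. VGLL3, a vestigial-like cofactor that binds TEAD proteins in place of YAP1, stood at 1.46 and 4.98 units in HS and at 11.5 and 12.7 units in drug-loaded MNs. Both treated libraries were above both untreated ones, which differed 3.40 times. The log2 fold change was 1.77 (SE 0.43, adjusted p 0.316 in limma), with 1.13 without HS replicate 1. FAT4, a giant protocadherin that acts as a receptor for DCHS1, stood at 5.47 and 10.9 units in HS and at 22.7 and 20.7 units in drug-loaded MNs. Its log2 fold change was 1.37 (SE 0.34, adjusted p 0.335 in limma), and only 0.76% of all genes tested had a higher one.

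The relatives of these genes had other values. VGLL4, a vestigial-like protein known to repress TEAD output, stood at 210 and 170 units in HS and at 160 and 183 units in drug-loaded MNs, overlapping, with a log2 fold change of -0.14. The log2 ratio of VGLL3 to VGLL4 was -7.16 and -5.10 in the HS libraries, against -3.80 and -3.85 in the treated ones, a gap of 2.31 between means with a pooled SD of 1.03. VGLL1 was below the filter, at 0.0493 units or less in every library. FAT1, the related cadherin, had a log2 fold change of 0.57 and DCHS1, the ligand of FAT4, one of 0.63, both without overlap. The log2 ratio of FAT4 to FAT1 was -4.65 and -4.19 in the HS libraries, against -3.61 and -3.39 in drug-loaded MNs, higher in both treated libraries.

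AMOT, the founding angiomotin, was nearly equal within each group, at 6.39 and 7.15 units in HS and at 12.1 and 12.6 units in drug-loaded MNs. Its log2 fold change was 0.78 (SE 0.27, adjusted p 0.437 in limma) and ran from 0.71 to 0.85 with 1 library left out. AMOTL1 and AMOTL2, its paralogs, overlapped between the groups as described above. On the lower side, RASSF1, a scaffold that binds MST kinases, stood at 141 and 113 units in HS and at 76.4 and 109 units in drug-loaded MNs, with a log2 fold change of -0.46 (adjusted p 0.72 in limma). RASSF1 was the gene of this list that was lower without overlap.

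Target genes of YAP1 and TEAD were described from a list of 22 in wide use, which also holds the members LATS2 and AMOTL2, and PTPN14 of the list above. Of these, 18 were in the table and 17 passed the filter. None passed in limma (smallest adjusted p 0.344). At an unadjusted p under 0.05 there were 5 higher and 1 lower (7.26% and 1.39% of all genes tested). Groups were free of overlap for 9 higher genes and 1 lower gene (26.6% and 11.2% of all genes tested). Of the 17, 13 were higher and 4 lower, where 64.6% of all genes tested were above 0. The median log2 fold change was 0.34, and with median ratio scaling it was 0.20. It was 0.52 when HS replicate 2 was left out, 0.59 when drug-loaded MNs replicate 2 was, and 0.18 when drug-loaded MNs replicate 1 was.

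The classical readouts of the pathway were not alike. CCN1 (CYR61), a matricellular protein gene, stood at 261 and 314 units in HS and at 687 and 325 units in drug-loaded MNs. Only replicate 1 of the treated libraries was far above HS, and without it the log2 fold change of 0.72 (adjusted p 0.67 in limma) was 0.18. CCN2 (CTGF), its relative and a marker of fibrosis, stood at 304 and 67.2 units in HS and at 322 and 102 units in drug-loaded MNs. The libraries numbered 1 were high and those numbered 2 low in both groups, and the log2 fold change of 0.34 had a 95% limma interval of -1.38 to 2.05 (adjusted p 0.94). ANKRD1, an ankyrin repeat gene that is a common reporter of YAP1, was below the filter, at 0 and 0.0733 units in HS and at 0.0355 and 0.0119 units in drug-loaded MNs.

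Other targets were above HS in both treated libraries. DOCK5, an exchange factor for the GTPase RAC, stood at 2.81 and 2.92 units in HS and at 8.89 and 6.35 units in drug-loaded MNs, with a log2 fold change of 1.14 (SE 0.30, adjusted p 0.344 in limma). RBMS3, an RNA-binding protein gene, stood at 11.1 and 12.9 units in HS and at 24.0 and 19.1 units in drug-loaded MNs, with a log2 fold change of 0.80 (SE 0.27, adjusted p 0.428 in limma). MYOF, a ferlin of membrane repair, stood at 27.6 and 51.9 units in HS and at 79.6 and 55.4 units in drug-loaded MNs. Its log2 fold change was 0.79 (SE 0.34, adjusted p 0.58 in limma), and HS replicate 2 came close to the lower treated library. F3, the tissue factor that starts coagulation, was the gene lower without overlap, at 311 and 409 units in HS and at 237 and 242 units in drug-loaded MNs, with a log2 fold change of -0.57 (SE 0.23, adjusted p 0.53 in limma).

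**Figure D4:**
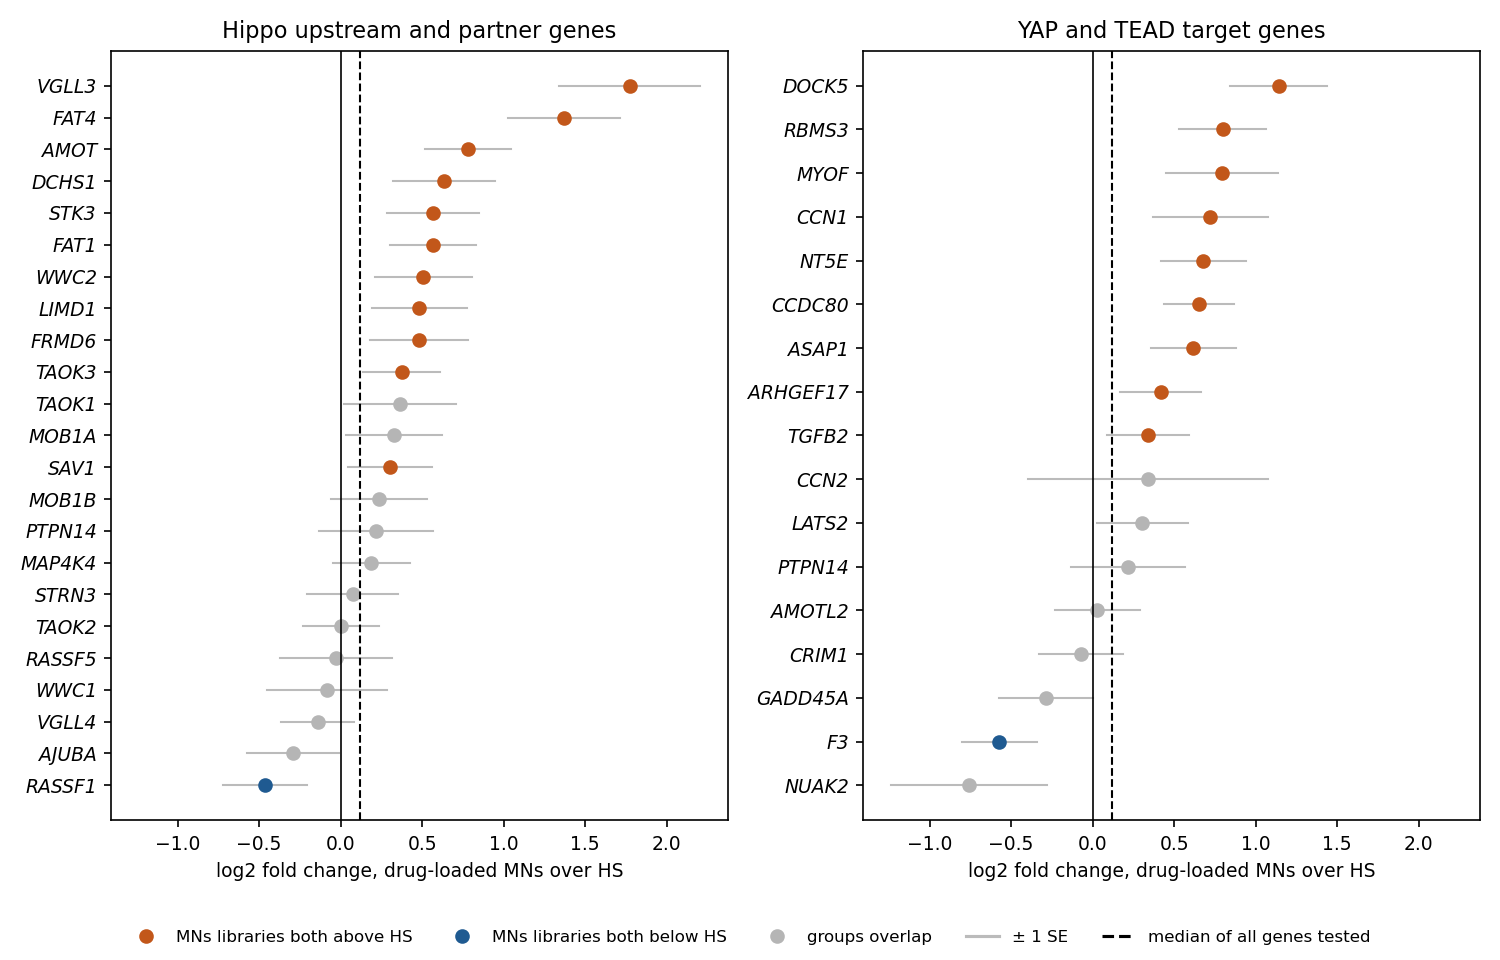
Log2 fold change of drug-loaded MNs over HS (horizontal axis) for the 23 upstream and partner genes (left) and the 17 target genes (right) that passed the filter. Points are estimates with bars of 1 SE, colours mark genes whose treated libraries both lie above or both below the untreated ones, and the dashed line is the median of all genes tested. VGLL3 and FAT4 lie farthest right on the left side, and DOCK5 on the right side.

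The summed level of cell type markers separated the groups for fibroblast and macrophage markers only. In such a mixture, a change in the number of cells of a type and a change in RNA per cell cannot be told apart. Of 8 listed fibroblast markers, 6 were analysed, and their sum was 9325 and 9639 units in HS and 22529 and 22058 units in drug-loaded MNs. Of 8 macrophage markers, 7 were analysed, with sums of 78.9 and 97.1 units in HS and of 198.4 and 198.2 units in drug-loaded MNs. Both lists were thus above HS in both treated libraries. Other lists overlapped, with sums from 6282 to 8734 units in HS and from 4525 to 8431 units in drug-loaded MNs for 6 of 8 basal keratinocyte markers. For 4 of 8 suprabasal markers the sums ran from 36817 to 52315 units in HS and from 31363 to 41238 units in drug-loaded MNs. The 6 of 8 endothelial markers ran from 198 to 203 units and from 152 to 205 units, and the 3 of 8 mural markers from 306 to 626 units and from 575 to 753 units. The endothelial sums held VWF at 149 and 128 units in HS and 83.1 and 114 units in drug-loaded MNs. Single endothelial markers went both ways: VWF and TIE1 were lower without overlap, PECAM1 and CDH5 higher without overlap, and EMCN and KDR overlapped. Of the mural markers, only ACTA2 was higher without overlap. The 5 of 6 mast cell markers ran from 64.2 to 144 units and from 94.3 to 207 units, and the 6 of 8 Schwann cell markers from 132 to 453 units and from 189 to 325 units. Of the mast cell markers, KIT and HPGDS were higher without overlap and the others overlapped. The Schwann sums held S100B at 410 and 17.0 units in HS and 204 and 98.5 units in drug-loaded MNs. All 6 Schwann markers had a log2 fold change above 0. No analysed marker was at 0 in all libraries. The share of mitochondrially encoded genes was 2.75% and 2.80% in HS, against 4.37% and 4.58% in the treated libraries. Log2 levels were also taken relative to the mean of the 6 fibroblast markers in the same library. These markers were themselves higher in drug-loaded MNs, with log2 fold changes from 0.58 to 1.46. A gene that rose less than their mean comes out lower on this scale. Only 3.97% of all genes tested had a higher log2 fold change than DCN (0.90), which is among the markers, and the largest of the members was 0.61. On this scale all 8 members were lower in drug-loaded MNs, 7 of them without overlap. The change was -1.01 for YAP1, -0.67 for WWTR1 and -1.72 for TEAD3, and -0.40 with overlap for TEAD1. VGLL3 was higher by 1.12 (pooled SD 0.79, no overlap), DOCK5 by 0.34 without overlap and FAT4 by 0.44 with overlap. AMOT (-0.18) and RBMS3 (-0.20) were lower without overlap, and MYOF (-0.24) and CCN1 (-0.33) lower with overlap. The own levels of AMOT, RBMS3, MYOF and CCN1 were higher in both treated libraries. The share of all genes tested that is lower on this scale, with or without overlap, was not computed. The lower values are therefore not read as a trait of the named genes. The part of the cell makeup and of the mitochondrial share in the fold changes given above was not tested.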

How the data were processed

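Single-cell 3′ libraries (10x Genomics) of rabbit ear scar had been run by the authors through Cell Ranger 2.1.1, per the submitters' processing notes, and Seurat, with cell filters and a batch correction. It was not stated whether the deposited values carry that correction. The notes list the mouse build mm10, while all 13913 gene identifiers are rabbit Ensembl ones, so no coordinates are given. The deposited signal is relative expression, 1 value per gene and library, and each column sums to 10000 although the table is named for FPKM. How cells were combined, and how doublets were treated, was not stated. Depth was unknown: of the 884 to 1082 values in each library that were at most 20 times its smallest, only 18.5% to 21.7% were within 0.1 of a whole multiple of it, so reads were not recovered and no count model or counting interval was used.

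Values were rescaled to 1000000 per library. The 9348 genes whose mean reached 1 unit were fitted as log2(value + 1) in limma 3.58.1 (R 4.3.3; lmFit, then eBayes with its trend option), with group as the only term. P-values were two-sided and adjusted by Benjamini-Hochberg over all genes tested, with a threshold of 0.05. Fold changes on this scale understate those of low genes. With 2 against 2 libraries, exact permutation cannot go below 0.333 and was not used. Named genes were the members, STK3, STK4, SAV1, NF2, CCN1, CCN2 and ANKRD1, up to 3 higher and 3 lower genes per list with the largest change without overlap, and the 3 genes nearest to YAP1 and to WWTR1. MOB1A, MOB1B, VGLL4, VGLL1, FAT1 and DCHS1 were added as relatives of named genes after their values were seen. A further gene of the upstream list is not reported here. Members and lists were chosen with earlier results of these data known. Alternatives were 3 other scalings, eBayes without trend, pseudocounts of 0.1 and 5, a minimum mean of 5 or none, the replicate number as a block, and leaving out each library.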

Additional observations from a re-analysis of the deposited data

How the results depend on the processing

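All 13 alternatives were planned. Of all genes tested, 4 were past the threshold, against 0 under quantile normalization, median ratio scaling, a total without abundant genes, a pseudocount of 5 and no filter, and 1 with eBayes without trend. With 1 library left out it ranged from 0 (without HS replicate 1) to 75 (without drug-loaded MNs replicate 2), the lone library of a group being assumed to vary like the other group. None of the 8 members passed in limma under any alternative. Their median (0.18) was reversed without HS replicate 1 and ranged from -0.081 to 0.43 with 1 library left out. The same range was 0.076 to 0.57 for upstream genes and 0.18 to 0.59 for targets. The cause was not tested.

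Whether equal replicate numbers pair the libraries is unknown. The deviations of same-numbered libraries had a correlation of 0.22 over genes, which from 2 pairs is no proof of pairing. With the replicate block the count was 241, and of the 20 named genes with a fit VGLL3 (adjusted p 0.0012) and FAT4 (adjusted p 0.011) passed, which they did under no other alternative (adjusted p from 0.0548 to 0.504 for VGLL3, the lowest without drug-loaded MNs replicate 1, and from 0.144 to 0.504 for FAT4).

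Of the 20, 15 kept their direction in all alternatives. Under median ratio scaling and quantile normalization the median of all genes was -0.011 and -0.019, and YAP1 (-0.10 and -0.023), AMOTL2 (-0.11 and -0.032) and TEAD4 (-0.078 and -0.071) were reversed too. With 1 library left out, log2 fold changes ranged from -0.25 to 0.33 for YAP1, -0.26 to 0.32 for AMOTL2, -0.16 to 0.97 for AMOTL1, -0.099 to 0.22 for TEAD4 and -0.74 to 1.42 for CCN2. The log2 ratio of the summed fibroblast markers (1.23) was 1.30 after quantile normalization and 1.09 after median ratio scaling. The limits that depth sets could not be measured, as depth was unknown.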
